A study of Mus musculus with 26 samples.

Results

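The 10 genes described here encode lipoxygenase and prostaglandin enzymes: Alox15, Alox5, Alox5ap, Ltc4s, Lta4h, Ptgs1, Ptgs2, Ptges, Hpgds and Tbxas1. They were chosen by name, and the identifiers of all 10 were found in each of the 3 count tables, which share 50104 gene identifiers and hold 61461 in all. RNA was sequenced from sorted cells of naive female mice that were WT (C57BL/6J, purchased) or ACKR2-/- (a homozygous colony bred by the study), so genotype and colony cannot be told apart. ACKR2 is an atypical chemokine receptor that internalises and degrades inflammatory CC chemokines without signalling. Bone marrow monocytes and small peritoneal macrophages (SPMs) each had 4 WT and 4 ACKR2-/- samples, for which cells of several mice were pooled, and MHCII negative lung macrophages had 5 and 5. No mouse received a treatment, and mice were 8 to 10 weeks old where no other age is stated. All p-values measure the spread between these samples, which the labels do not tie to single animals.

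Eicosanoids are lipid mediators made from arachidonic acid, which phospholipases A2 release from membranes. In the leukotriene branch, 5-lipoxygenase (Alox5) works with its activating protein FLAP (Alox5ap) to make leukotriene A4, from which Lta4h makes the neutrophil attractant leukotriene B4 and Ltc4s makes the cysteinyl leukotriene C4. Alox15 encodes the 12/15-lipoxygenase of mouse resident macrophages and eosinophils, which makes hydroxy fatty acids and precursors of lipoxins. In the prostanoid branch, the cyclooxygenases Ptgs1 and the inducible Ptgs2 make prostaglandin H2, which Ptges, Hpgds and Tbxas1 convert to prostaglandin E2, prostaglandin D2 and thromboxane A2.

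Promoter sequences were matched for 8 of the 10 genes in a RefSeq table of build GRCm38.p6, and those of Alox15 and Alox5ap were not matched. Shown are the 250 bases before the annotated RefSeq start, read 5′ to 3′ on the gene's strand, of the 6 matched genes whose level differed most between WT cell types. The windows of Tbxas1 and Ptges lie wholly inside the gene spans printed below. Their starts are thus internal ones, and bases before the outer ends of these 2 genes were not searched. Ltc4s (chr11:50238533-50238782, minus strand), Tbxas1 (chr6:38918736-38918985, plus strand) and Ptgs1 (chr2:36230176-36230425, plus strand) were higher in SPMs than in lung macrophages, Lta4h (chr10:93453146-93453395, plus strand) was highest in monocytes, and Ptgs2 (chr1:150099781-150100030, plus strand) and Hpgds (chr6:65144731-65144980, minus strand) were highest in lung macrophages. Capitals mark any match, on either strand, to GAGGAA (the core bound by the myeloid factor PU.1), TTGCNNAA (the motif of C/EBP factors), TATAAA (the TATA box) or CGTCA (the core of the cyclic AMP response element).
Ltc4s: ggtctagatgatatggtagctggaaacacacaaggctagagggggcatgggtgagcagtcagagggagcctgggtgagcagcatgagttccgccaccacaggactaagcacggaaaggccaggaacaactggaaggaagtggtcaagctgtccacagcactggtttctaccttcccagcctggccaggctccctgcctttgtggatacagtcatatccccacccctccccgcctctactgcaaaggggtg
Tbxas1: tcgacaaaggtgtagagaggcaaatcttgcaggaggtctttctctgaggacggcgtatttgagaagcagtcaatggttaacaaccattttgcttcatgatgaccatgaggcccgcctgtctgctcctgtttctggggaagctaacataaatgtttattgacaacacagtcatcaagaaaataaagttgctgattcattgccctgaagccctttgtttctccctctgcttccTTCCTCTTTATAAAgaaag
Ptgs1: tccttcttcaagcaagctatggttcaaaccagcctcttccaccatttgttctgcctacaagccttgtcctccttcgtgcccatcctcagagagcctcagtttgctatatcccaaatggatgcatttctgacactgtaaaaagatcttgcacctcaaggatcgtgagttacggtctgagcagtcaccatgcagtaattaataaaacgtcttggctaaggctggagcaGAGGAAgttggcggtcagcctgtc
Lta4h: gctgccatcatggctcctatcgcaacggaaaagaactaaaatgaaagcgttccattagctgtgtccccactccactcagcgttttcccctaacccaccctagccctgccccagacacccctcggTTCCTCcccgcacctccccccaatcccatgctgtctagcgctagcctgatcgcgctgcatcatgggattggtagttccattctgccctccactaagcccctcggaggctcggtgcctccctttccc
Ptgs2: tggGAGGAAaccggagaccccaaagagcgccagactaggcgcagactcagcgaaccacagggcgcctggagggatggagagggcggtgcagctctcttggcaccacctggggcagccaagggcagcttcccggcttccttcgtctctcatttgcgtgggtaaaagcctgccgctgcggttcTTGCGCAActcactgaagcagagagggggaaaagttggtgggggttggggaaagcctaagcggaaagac
Hpgds: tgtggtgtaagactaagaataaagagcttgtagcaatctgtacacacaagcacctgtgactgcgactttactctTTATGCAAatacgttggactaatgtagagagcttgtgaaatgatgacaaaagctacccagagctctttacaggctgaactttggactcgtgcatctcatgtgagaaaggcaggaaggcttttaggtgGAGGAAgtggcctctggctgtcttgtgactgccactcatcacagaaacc
GAGGAA or its complement was found once in each of 7 of the 8 promoters (those of Tbxas1, Ptgs1, Lta4h, Ptgs2, Hpgds, Alox5 and Ptges) and not in that of Ltc4s, and 23.3% of the 32851 RefSeq promoter entries held it in the same window. It began 19 bases before the start of Tbxas1, 24 bases before that of Ptgs1, 49 bases before that of Hpgds, 126 bases before that of Lta4h and 247 bases before that of Ptgs2. TTGCNNAA was found in the promoters of Ptgs2 and Hpgds (9.56% of all entries held it), TATAAA at 2 overlapping places, 1 on each strand, in that of Tbxas1 (12.4%), and CGTCA in none of the 8 (17.8%). The motifs were chosen with the sequences in view, and a match describes letters, not a bound site.

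Reads on genes ranged from 15450670 to 19218213 in monocyte libraries, from 12781144 to 35400034 in SPM libraries and from 19950019 to 29770252 in lung macrophage libraries. The markers of each labelled cell type were all detected in it (5 of 5 for monocytes, 6 of 6 for SPMs and 7 of 7 for interstitial macrophages), but detection alone does not set identity. The neutrophil list summed to 31062 to 63864 CPM in WT monocytes, above the monocyte list at 8140 to 8806 CPM. The interstitial macrophage list summed to 2329 to 2949 CPM in 4 of the 5 WT lung libraries and to 9404 CPM in WT 3, beside 9890 to 12048 CPM in WT SPMs, while the alveolar macrophage list summed to 1790 to 3290 CPM and the epithelial list to 416 to 16918 CPM in WT lung libraries. Ackr2, the deleted gene, had 5 to 9 reads in WT SPM libraries and 0 in the 4 ACKR2-/- ones, and it checked no monocyte label, with 2 reads in 1 of 8 libraries. In the lung it reached 7.75 to 22.1 CPM in 4 WT libraries and 0.282 to 1.64 CPM in the ACKR2-/- ones. The library labelled WT 5 had 0 reads, unlike the other WT ones, so Ackr2 did not bear out its label. That library also had the lowest WT lung sums of the epithelial list (416 CPM) and the endothelial or fibroblast list (130 CPM). ACKR2-/- library 4 had lower sums still, 252 and 98.4 CPM, with 7 Ackr2 reads. The reason for the 0 reads was not tested. CPM is the read count divided by the library size in units of 1e+06 reads, after TMM scaling within a cell type. Lung library WT 3 stood apart, with 21242 CPM of the MHCII gene H2-Ab1 against 253 to 1708 CPM in the other 9. Bulk RNA cannot tell fewer cells of a type from less RNA per cell.

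Among WT samples, the leukotriene genes were arranged differently in each cell type. Levels that are compared between genes or cell types are given as CPM per kilobase of gene length, with 1 scaling over all 26 samples, and cell type and sequencing table cannot be told apart. Lungs were digested with enzymes, whereas bone marrow was flushed and the peritoneal cavity was lavaged. Tissue preparation therefore cannot be told apart from cell type either. Alox5ap (ENSMUSG00000060063; chromosome 5, 149264767 to 149288153, plus strand, GRCm38), the FLAP gene, was the highest of the 10 everywhere, at 241 ± 14.0 CPM per kilobase in monocytes (SD, n = 4), 539 ± 130.3 in SPMs (n = 4) and 194 ± 47.7 in lung macrophages (n = 5). Its level in SPMs exceeded that in monocytes by 1.16 on the log2 scale (SE 0.23, adjusted p = 0.000173), and that in lung macrophages was lower than in SPMs by the same edgeR quasi-likelihood test (log2 fold change -1.48, SE 0.21, adjusted p = 1.74e-06). Alox5 (ENSMUSG00000025701; chromosome 6, 116410077 to 116461178, minus strand), the enzyme that FLAP serves, was at 12.3 ± 3.90 CPM per kilobase in monocytes, 12.3 ± 2.80 in SPMs and 17.6 ± 2.07 in lung macrophages, and none of its 3 contrasts passed the test.

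The next step of the branch divided the cell types. Lta4h (ENSMUSG00000015889; chromosome 10, 93453411 to 93484875, plus strand) was at 158 ± 44.1 CPM per kilobase in WT monocytes, 15.6 ± 3.33 in SPMs and 19.1 ± 4.23 in lung macrophages, and every monocyte library lay above every library of the other two. It was lower in SPMs than in monocytes (log2 fold change -3.34, SE 0.29, adjusted p = 1.11e-09) and lower in lung macrophages than in monocytes (-3.04, SE 0.26, adjusted p = 3.48e-10, edgeR). Ltc4s (ENSMUSG00000020377; chromosome 11, 50236461 to 50238616, minus strand) ran the other way, at 449.9 ± 168 CPM per kilobase in SPMs, 10.5 ± 2.72 in lung macrophages and 0.127 ± 0.0697 in monocytes, where it rested on 11 reads over 4 libraries. Its log2 fold change was 11.74 for SPMs against monocytes (SE 0.56, adjusted p = 2.3e-13), 6.31 for lung macrophages against monocytes (SE 0.50, adjusted p = 3.33e-10) and -5.43 for lung macrophages against SPMs (SE 0.37, adjusted p = 3.07e-11). Per length, each WT monocyte library had 0.000396 to 0.00108 reads of Ltc4s for each of Lta4h, each WT lung macrophage library had 0.302 to 1.13, and each WT SPM library had 22 to 43.0. The ACKR2-/- libraries kept this order, with 0 in monocytes, 0.178 to 1.12 in lung macrophages and 11.3 to 40.0 in SPMs.

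Alox15 (ENSMUSG00000018924; chromosome 11, 70344152 to 70352031, minus strand), the 12/15-lipoxygenase gene, was an SPM transcript with wide variation. It was at 214 ± 137 CPM per kilobase in WT SPMs, 4.76 ± 6.79 in WT lung macrophages and 0.881 ± 0.220 in WT monocytes. SPMs exceeded monocytes by 7.92 on the log2 scale (SE 1.34, adjusted p = 2.8e-05), and lung macrophages lay below SPMs (log2 fold change -5.49, SE 1.07, adjusted p = 9.31e-05). The difference between lung macrophages and monocytes (2.43, SE 1.05, adjusted p = 0.0452, edgeR) was called in 12 of 24 alternative analyses, and was lost without the lung library labelled WT 2 (2.15, adjusted p = 0.088) or WT 5 (1.29, adjusted p = 0.255) and without any of the 4 WT monocyte libraries (adjusted p = 0.074 to 0.0987). The 5 WT lung libraries had 0.755, 25.7, 0.775, 0 and 46.6 CPM, so 2 of them carried the WT lung mean.

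The prostanoid genes were spread between the macrophage types. Ptgs1 (ENSMUSG00000047250; chromosome 2, 36230426 to 36252272, plus strand), the constitutive cyclooxygenase gene, was at 21.6 ± 4.40 CPM per kilobase in WT monocytes, 38.8 ± 6.68 in SPMs and 6.26 ± 4.23 in lung macrophages. Lung macrophages lay below monocytes (log2 fold change -1.78, SE 0.41, adjusted p = 0.000582) and below SPMs (-2.63, SE 0.42, adjusted p = 7.81e-06), while monocytes and SPMs did not differ past the threshold (0.85, SE 0.44, adjusted p = 0.125, edgeR). Ptgs2 (ENSMUSG00000032487; chromosome 1, 150100031 to 150108227, plus strand), the inducible cyclooxygenase gene, was highest in the lung libraries, whose cells alone came from enzyme-digested tissue. It had 10.0 to 90.6 CPM in the 5 WT lung libraries, 0 to 12 reads in WT monocyte libraries and 1 read in all over the 4 WT SPM libraries. Per read on genes, the ratio of WT lung macrophages to WT SPMs was 2898, with a 95% exact counting interval from 520 to 114506 that covers counting error only, and the log2 fold change against monocytes was 6.99 (SE 0.92, adjusted p = 4.17e-07, edgeR).

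Of the terminal synthases, Tbxas1 (ENSMUSG00000029925; chromosome 6, 38875404 to 39084585, plus strand), which makes thromboxane A2, was at 37.0 ± 9.85 CPM per kilobase in WT SPMs, 4.26 ± 0.645 in monocytes and 3.09 ± 3.29 in lung macrophages. It was higher in SPMs than in monocytes by 3.12 on the log2 scale (SE 0.47, adjusted p = 6.5e-06) and lower in lung macrophages than in SPMs (-3.58, SE 0.44, adjusted p = 1.43e-07). Without lung library WT 3, Tbxas1 was also lower in lung macrophages than in monocytes (log2 fold change -1.39, SE 0.27, adjusted p = 8.96e-05, edgeR). Hpgds (ENSMUSG00000029919; chromosome 6, 65117293 to 65144908, minus strand), the prostaglandin D2 synthase gene of haematopoietic cells, was at 4.16 ± 4.19 CPM per kilobase in lung macrophages, 1.13 ± 0.775 in SPMs and 0.0691 ± 0.0151 in monocytes. Its log2 fold change was 3.99 for SPMs against monocytes (SE 0.74, adjusted p = 8.47e-05), 5.90 for lung macrophages against monocytes (SE 0.76, adjusted p = 3.31e-07) and 1.90 for lung macrophages against SPMs (SE 0.61, adjusted p = 0.00876), the last of which was lost without lung library WT 3 (1.07, adjusted p = 0.0825). Ptges (ENSMUSG00000050737; chromosome 2, 30889471 to 30929863, minus strand), the inducible prostaglandin E2 synthase gene, was low throughout, at 1.23 ± 0.235 in monocytes, 1.01 ± 0.554 in SPMs and 2.69 ± 2.01 in lung macrophages. Its one call, lung macrophages above SPMs (1.43, SE 0.61, adjusted p = 0.0425), was lost with RLE scaling (adjusted p = 0.0662), without any of WT SPM libraries 1, 2 and 4 or WT lung libraries 1 and 2 (log2 fold changes of 0.88 to 1.54), and with the replicate number as a block (0.0095, adjusted p = 1.00).

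**Figure D1:**
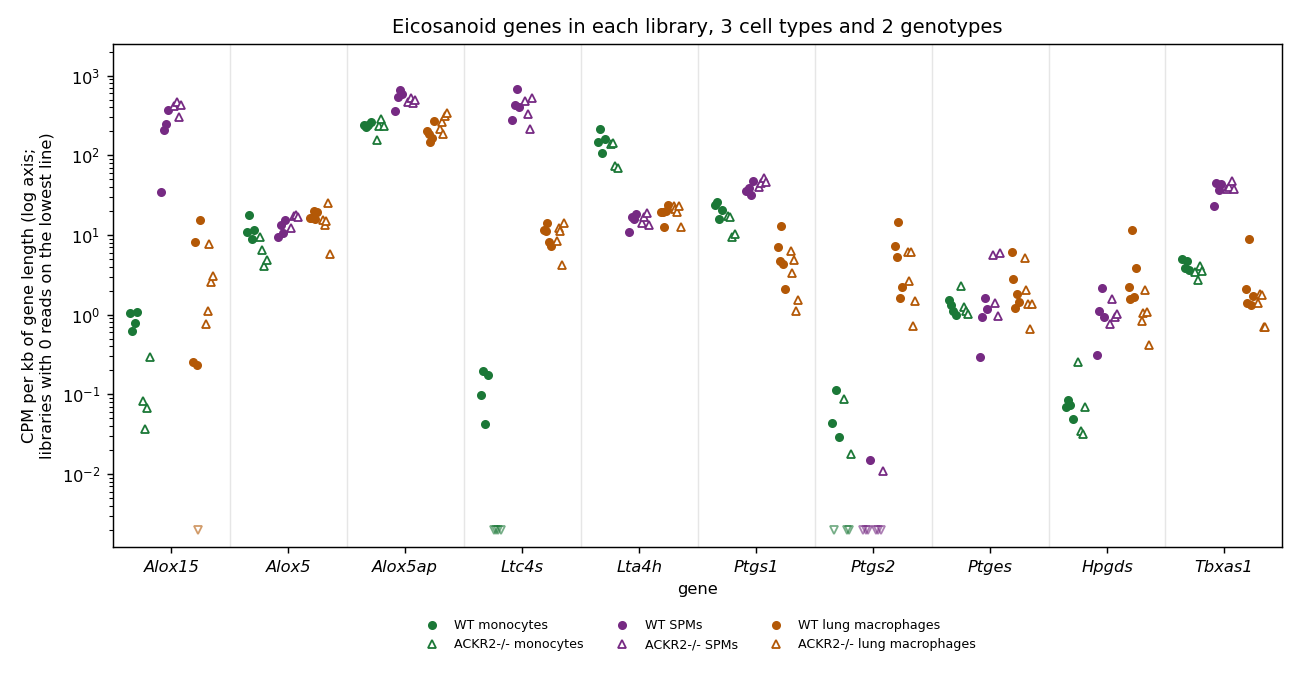
Level of each gene in each of the 26 libraries, in CPM per kilobase of gene length on a log axis; filled circles are WT, open triangles ACKR2-/-, colours the cell types, and libraries with 0 reads are drawn on the lowest line. Alox15, Ltc4s and Tbxas1 were highest in SPMs, Lta4h in monocytes, and Ptgs2 was at or near 0 outside the lung.

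In counts, SPMs differed from monocytes at 6 of the 10 genes (5 higher, 1 lower), lung macrophages from monocytes at 6 (4 higher, 2 lower) and lung macrophages from SPMs at 8 (3 higher, 5 lower). A gene was called when its log2 fold change was over 0.5 in size with an adjusted p under 0.05. Of all 17792 genes tested, 41.9%, 63.8% and 62.3% were called in the same contrasts, so shares of this size were not particular to the 10. Their median absolute log2 fold changes were 3.07, 2.11 and 2.27, beside 0.87, 1.26 and 1.31 over all genes. TMM scaling left a median shift of all genes of 0.34 for lung macrophages against monocytes and 0.41 against SPMs, and RLE scaling shifted SPMs against monocytes by 0.16. Within the WT monocytes, the order per length ran from Alox5ap through Lta4h, Ptgs1, Alox5 and Tbxas1 to Ptges, Alox15, Ltc4s, Hpgds and Ptgs2, where Ptgs1 overlapped Alox5, Ptges overlapped Alox15, and the last 3 overlapped in turn. In WT SPMs it ran from Alox5ap through Ltc4s, Alox15, Ptgs1, Tbxas1, Lta4h and Alox5 to Hpgds, Ptges and Ptgs2, and the first 5 each overlapped the next, save Tbxas1, which lay above Lta4h in every sample. In WT lung macrophages, Alox5ap lay above Lta4h and Alox5 lay above Ltc4s in every sample, whereas Lta4h overlapped Alox5 and the 7 genes from Ltc4s down each overlapped the next.

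The genes most like each of the 10 were found by Pearson's r of log2 CPM over all 26 samples and 17792 genes, which is given as a description because the points share cell types, tables and depth. Alox15 was most like Cd5l (r = 0.939), a scavenger protein gene of tissue macrophages, Prg4 (0.938), a marker of large peritoneal macrophages (LPMs), and Batf (0.933). Ltc4s was most like Vamp8 (0.987), Pold4 (0.985) and the complement gene C1qb (0.984), and Tbxas1 like Cd200r1 (0.978), Cd84 (0.977) and the properdin gene Cfp (0.976). Lta4h was most like Stk16 (0.982), Tuba4a (0.981) and Lin28a (0.979). Hpgds was most like Tmem202 (0.936), Cd14 (0.935) and Igf1 (0.933), and Ptgs1 like Susd1 (0.951), Capg (0.941) and Sac3d1 (0.937). Alox5ap was most like Tmem50a (0.969), 1600010M07Rik (0.966) and Atp6v1f (0.957), and Ptgs2 like 4930560O18Rik (0.976), Gm28989 (0.975) and Gm43109 (0.973). Alox5 and Ptges had no close match, the highest r being 0.758 with Tpp1, 0.755 with Blcap and 0.754 with AC154636.2 for Alox5, and 0.806 with Serpina3f, 0.782 with Fas and 0.779 with C1ra for Ptges.

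Between genotypes, 1 of the 8 genes tested was called in monocytes, none of 9 in SPMs and none of 10 in lung macrophages (edgeR quasi-likelihood test). Of all genes tested, 1.27% were called in monocytes, 0.0462% in SPMs and 0% in lung macrophages. At an unadjusted p under 0.05 the counts were 3 of 8 genes tested, 1 of 9 and 2 of 10, beside 17.0%, 5.46% and 2.97% of all genes tested, and DESeq2 called 2, 0 and 0. Ltc4s and Ptgs2 in monocytes and Ptgs2 in SPMs had too few reads to be tested. The median log2 fold change of the tested members was -0.42 in monocytes, 0.09 in SPMs and -0.47 in lung macrophages, beside 0.0041, -0.05 and -0.04 over all genes.

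**Figure D2:**
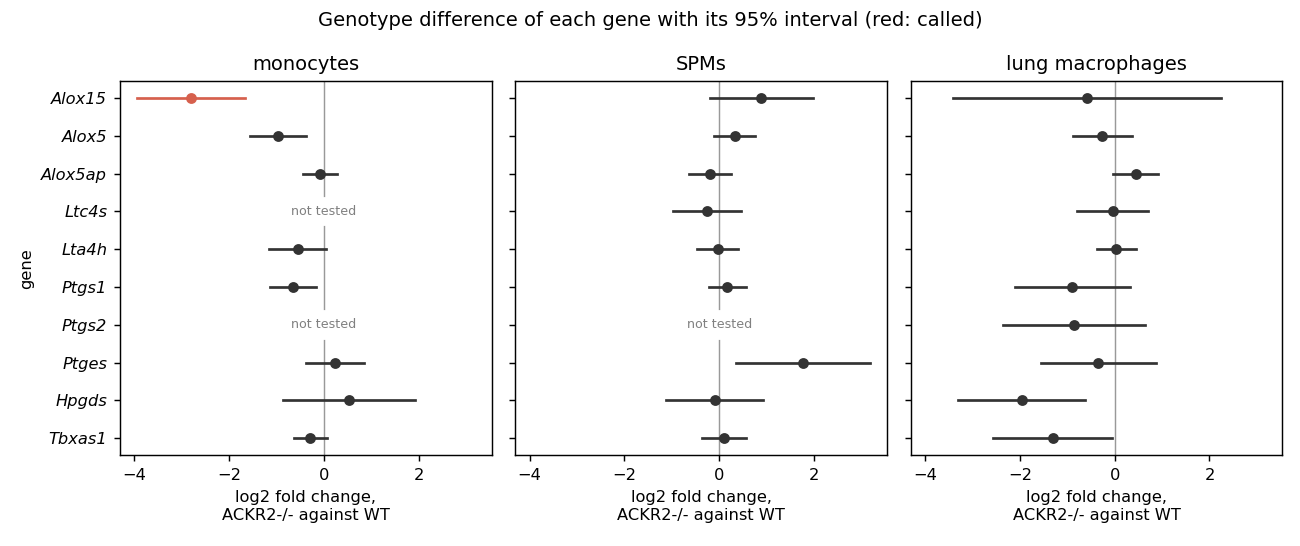
Log2 fold change of each gene in ACKR2-/- against WT samples of 1 cell type (dot) with its 95% interval from the edgeR fit (line); red marks a call. Alox15 in monocytes, at -2.80, was the only call, and in the lung Alox15 had the widest interval (-3.41 to 2.24) and Hpgds the lowest value (-1.96).

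Alox15 fell in ACKR2-/- monocytes. The 4 WT libraries had 3.39, 1.93, 2.45 and 3.30 CPM, from 52, 31, 44 and 59 reads, and the 4 ACKR2-/- libraries had 0.269, 0.114, 0.210 and 0.956 CPM, from 5, 2, 4 and 18 reads. Every ACKR2-/- library lay below every WT one. The log2 fold change was -2.80 (SE 0.52, 95% interval -3.94 to -1.67, adjusted p = 0.0254), and an exact two-sided permutation test of the mean CPM gave p = 0.0286, the smallest that 4 against 4 allows. The fold change stayed between -3.78 and -2.50 over 17 alternatives, but the adjusted p rose to 0.0521 to 0.0953 without any of the WT libraries, to 0.0537 without ACKR2-/- library 1, and to 0.846 in the fit over all 26 samples. The level was low even in WT monocytes, the seventh of the 10 genes per length.

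Markers of other cell types were followed in the same libraries, which were sorted as Ly6C+, CD11b+ cells without Ly6G, SiglecF (a surface protein of eosinophils) or F4/80. The 7 of 7 eosinophil markers found, led by Siglecf and Prg2, summed to 20.8, 21.8, 35.0 and 18.2 CPM in WT monocytes and to 58.8, 16.5, 7.42 and 16.7 CPM in ACKR2-/- ones, none being at 0 in a whole group. The 2 genotypes overlapped in this sum, and its part in the result was not tested. The LPM list (7 of 7 found) ranged from 154 to 182 CPM in WT and from 85.8 to 188 CPM in ACKR2-/- monocytes, with Gata6 at 0 in the latter. Of that list, Prg4, named above among the genes most like Alox15, had 1.76, 1.43, 1.67 and 1.73 CPM in WT and 1.02, 0.626, 0.421 and 0.637 CPM in ACKR2-/- monocytes. The list as a whole did not follow it, since its sum was highest, at 188 CPM, in ACKR2-/- library 3, where Prg4 was lowest. The mast cell or basophil list (10 of 10 found) ranged from 166 to 261 CPM in WT and from 47.8 to 186 CPM in ACKR2-/- monocytes, with Tpsb2 and Cma1 at 0 in both. The alveolar macrophage list (8 of 8 found) ranged from 7676 to 9325 CPM in WT and from 5060 to 6726 CPM in ACKR2-/- monocytes, with Krt79 and Car4 at 0 in both, and the T cell list (8 of 8 found, none at 0) from 3.56 to 4.87 CPM and from 64.6 to 115 CPM. Neither of these 2 lists overlapped between the genotypes, and the part of any of these cells in the result was not tested. The alveolar macrophage list summed to less in WT lung macrophages, at 1790 to 3290 CPM, so its sum in monocytes does not set cell identity. Within the 8 monocyte libraries Alox15 was most like Aoah (r = 0.974), a lipopolysaccharide-inactivating enzyme gene, Gm12286 (0.961) and Retreg3 (0.958).

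Alox5, Lta4h and Ptgs1 were lower in ACKR2-/- monocytes on average, with no call. Alox5 had 57.6, 93.3, 47.2 and 59.2 CPM in WT libraries and 51.0, 33.9, 21.6 and 25.8 CPM in ACKR2-/- libraries, which overlapped. Its log2 fold change was -0.96 (SE 0.27, adjusted p = 0.108), and it was called in 4 of 17 alternatives, among them DESeq2 (adjusted p = 0.0213), the fit without a filter on low counts (0.0153) and the fit without ACKR2-/- library 1 (0.0314). Lta4h, the leukotriene B4 enzyme gene, had 1161, 1660, 845 and 1247 CPM in WT and 1114, 1109, 573 and 558 CPM in ACKR2-/- libraries (log2 fold change -0.55, SE 0.27, adjusted p = 0.334). Ptgs1 had 119.8, 129, 79.7 and 100.1 CPM in WT and 90.3, 83.6, 47.5 and 51.9 CPM in ACKR2-/- libraries (-0.65, SE 0.22, adjusted p = 0.176). In all 3 genes, ACKR2-/- libraries 3 and 4 were the lowest of the 8. The same 2 libraries had the lowest sums of the neutrophil list (9 of 9 found, none at 0), 13957 and 18045 CPM, against 47728 and 47259 CPM in ACKR2-/- libraries 1 and 2 and 31062 to 63864 CPM in WT. Granule genes made up most of these sums, with 4694 and 4761 CPM of Elane in libraries 3 and 4 and 7328 to 14468 CPM in the other 6, whereas Ly6g, whose protein was gated out, had 7.46 to 18.2 CPM in WT and 2.68 to 6.94 CPM in ACKR2-/- libraries. Without these 2 libraries the log2 fold changes were -0.59 for Alox5, -0.13 for Lta4h and -0.29 for Ptgs1, in an analysis added after the values were seen. The 2 libraries were the lowest in all 3 genes, so the smaller falls follow from the choice. In the same fit that of Alox15 was -3.78 (adjusted p = 0.00532, edgeR), and the count of members called was 1. Other lists were also lowest in ACKR2-/- libraries 3 and 4. The mast cell or basophil list summed to 47.8 and 56.3 CPM there, and the megakaryocyte or platelet list to 1.58 and 3.08 CPM. The part of granulocyte lineage cells, or of the cells of these other lists, in these values was not tested.

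**Figure D3:**
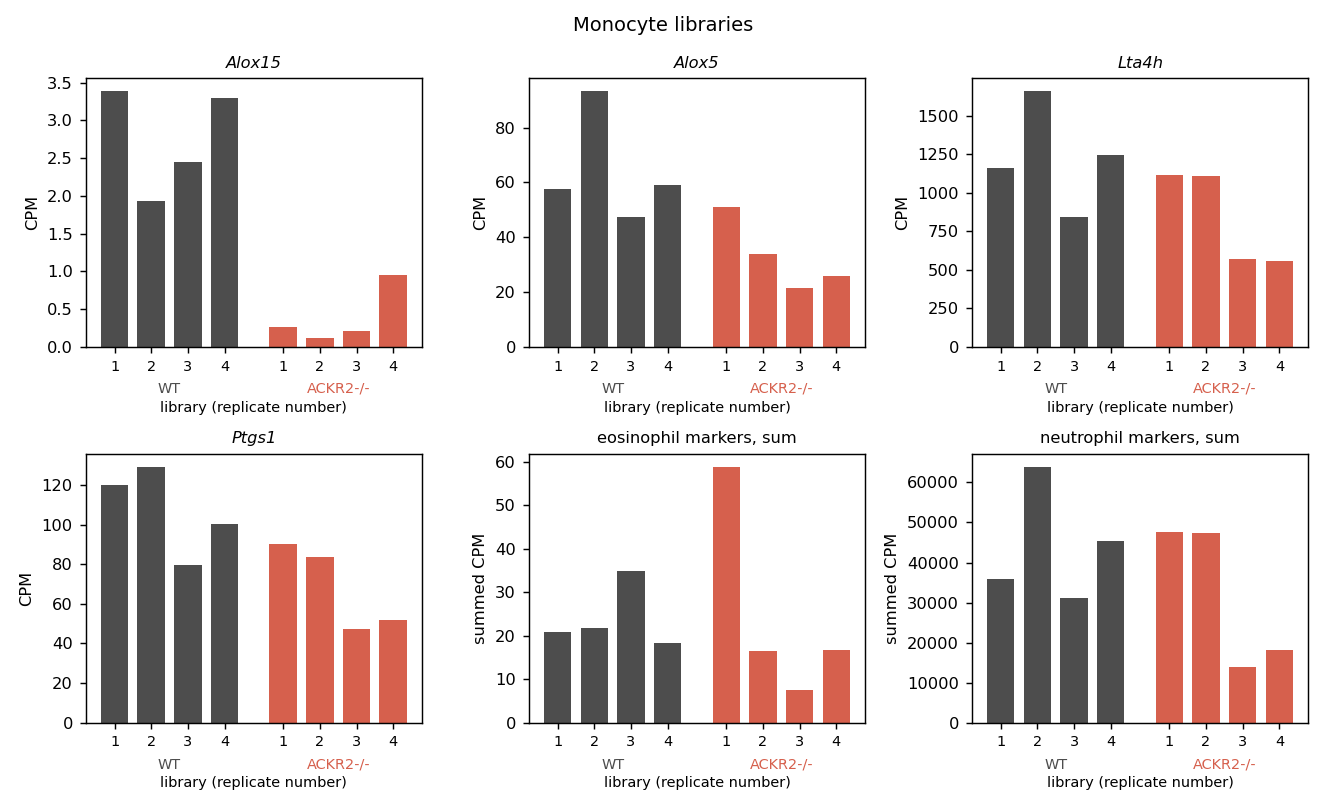
Bars give the level of Alox15, Alox5, Lta4h and Ptgs1 (CPM) and the summed CPM of the eosinophil and neutrophil marker lists in each of the 8 monocyte libraries (grey WT, red ACKR2-/-). Alox15 was low in all 4 ACKR2-/- libraries, whereas Alox5, Lta4h, Ptgs1 and the neutrophil sum were lowest in ACKR2-/- libraries 3 and 4.

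None of the remaining genes was called in monocytes, and 2 of them were not tested. Alox5ap had 291 to 516 CPM and a log2 fold change of -0.08 (95% interval -0.44 to 0.28), and Tbxas1 had 31.5 to 58.8 CPM and one of -0.28 (-0.62 to 0.06). Ptges and Hpgds were each set apart by ACKR2-/- library 1, with 12.1 CPM of Ptges against 4.87 to 7.75 CPM in the other 7 and 2.15 CPM of Hpgds against 0.263 to 0.684 CPM. Without it their log2 fold changes turned from 0.24 to -0.12 and from 0.53 to -0.58. Ltc4s had 2, 4, 1 and 4 reads in the WT libraries and 0 in each ACKR2-/- one, and since 3 reads is the limit that a count of 0 allows, no fold is given. Its groups did not overlap, and an exact two-sided permutation test of the mean CPM gave p = 0.0286, the smallest that 4 against 4 allows. Ptgs2 had 4, 0, 12 and 3 reads in WT and 10, 0, 0 and 2 in ACKR2-/- libraries.

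In SPMs the Alox15 difference was not called, and its log2 fold change was positive. The WT libraries had 53.1, 282, 344 and 484 CPM and the ACKR2-/- libraries 572, 613, 405 and 561 CPM, so the genotypes overlapped, and WT 1 lay far below the rest. The log2 fold change was 0.89 (SE 0.49, 95% interval -0.20 to 1.97, adjusted p = 0.788), and 0.54 without WT 1. The LPM list (7 of 7 found, none at 0) was also lowest in WT 1, at 388 CPM against 739 to 999 CPM in the other WT libraries and 742 to 1683 CPM in ACKR2-/- ones. Its marker Timd4 had 29.2 CPM in WT 1 and 121 to 185 CPM in the other 7. The eosinophil list summed to 2.03 to 3.97 CPM in SPMs, with Epx and Ear6 at 0 in both genotypes. The sort took SPMs as cells with intermediate F4/80 and with MHCII, whereas LPMs have high F4/80. The monocyte list was highest in WT 1, at 2554 CPM against 782 to 1427 CPM in the other 7. Other lists were lowest in WT 1 too. Among them were the mast cell or basophil list (536 CPM against 2077 to 6800 CPM in the other 7), the dendritic cell list (154 against 203 to 1231 CPM) and the B cell list (171 against 343 to 551 CPM). The T cell and interstitial macrophage lists were not lowest there. The part of LPMs, monocytes or any of these cells in the level of Alox15 was not tested.

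Ptges, the prostaglandin E2 synthase gene, was high in 2 ACKR2-/- SPM libraries. It had 0.719, 2.07, 3.61 and 2.51 CPM in WT and 12.1, 3.01, 2.04 and 12.8 CPM in ACKR2-/- libraries, so libraries 1 and 4 stood above all others. The log2 fold change was 1.77 (SE 0.64, unadjusted p = 0.0185, adjusted p = 0.788, edgeR), and 0.19 without those 2 libraries, which were chosen for their high Ptges, so that the lower value follows from the choice. In the same 2 libraries the scavenger receptor gene Marco had 206 and 311 CPM against 5.85 to 31.6 CPM in the other 6, and the LPM marker Icam2 had 764 and 811 CPM against 97.6 to 338 CPM. The LPM list summed to 1352 and 1683 CPM in them, against 849 and 742 CPM in the other ACKR2-/- ones and 388 to 999 CPM in WT. Icam2 made up a large part of those 2 sums. The LPM marker Timd4 stayed within the range given above for all libraries but WT 1, and the part of LPMs was not tested.

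The cysteinyl leukotriene and prostaglandin D2 enzyme genes did not differ between genotypes past the threshold in SPMs. Ltc4s had 177, 242, 391 and 223 CPM in WT and 271, 183, 119 and 289.7 CPM in ACKR2-/- libraries (log2 fold change -0.26, 95% interval -0.97 to 0.45). Hpgds had 1.25, 3.92, 7.92 and 3.25 CPM in WT and 2.76, 5.46, 3.25 and 3.58 CPM in ACKR2-/- libraries (-0.10, interval -1.12 to 0.93). Within each genotype Hpgds was highest and lowest in the libraries where the mast cell or basophil list (10 of 10 found, none at 0) was highest and lowest. That list summed to 536, 3070, 6800 and 3343 CPM in WT and 2077, 4730, 2499 and 2266 CPM in ACKR2-/- SPMs, led by the mast cell chymase gene Cma1 and the tryptase gene Tpsb2. The megakaryocyte or platelet list was highest and lowest in the same libraries. It summed to 107, 198, 512 and 344 CPM in WT and 201, 467, 255 and 241 CPM in ACKR2-/- SPMs, with 5 of its 8 genes at 0 in WT and 3 in ACKR2-/- SPMs. The part of either list in the levels of Hpgds and Ltc4s was not tested. The intervals of the other genes were narrower. They ran from -0.11 to 0.76 for Alox5, -0.64 to 0.24 for Alox5ap, -0.47 to 0.41 for Lta4h, -0.22 to 0.56 for Ptgs1 and -0.37 to 0.55 for Tbxas1.

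**Figure D4:**
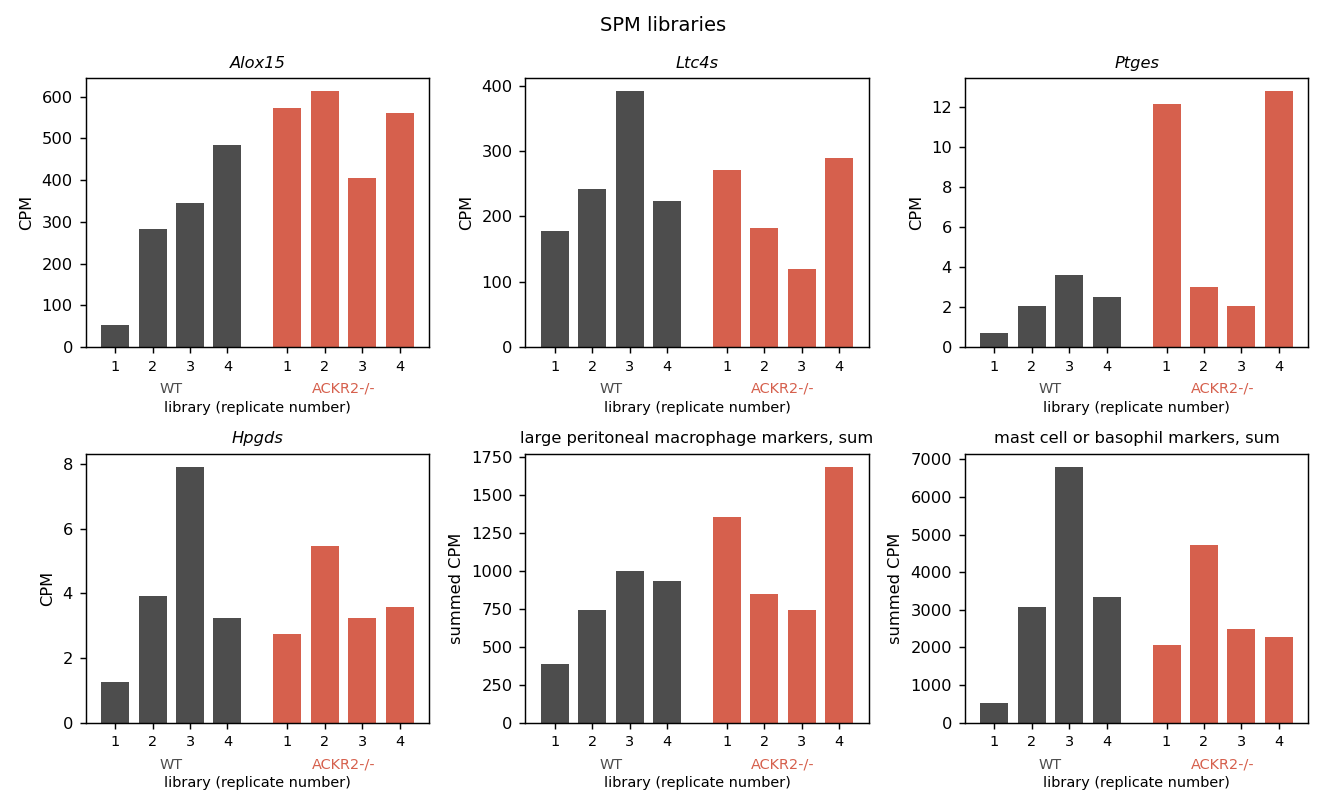
Bars give the level of Alox15, Ltc4s, Ptges and Hpgds (CPM) and the summed CPM of the large peritoneal macrophage and mast cell or basophil marker lists in each of the 8 SPM libraries (grey WT, red ACKR2-/-). WT 1 had the lowest Alox15 and the lowest marker sums, and Ptges was high in ACKR2-/- libraries 1 and 4 alone.

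In lung macrophages the prostanoid genes were lower in ACKR2-/- samples on average, with no call. Hpgds had 17.5, 12.9, 98.9, 14.6 and 31.2 CPM in the libraries labelled WT 1 to 5 and 6.53, 8.42, 17.9, 8.37 and 3.67 CPM in the ACKR2-/- ones. WT 3 and ACKR2-/- library 3 were the highest of their genotypes, and the ACKR2-/- value of 17.9 CPM kept the genotypes overlapping. The log2 fold change was -1.96 (SE 0.61, unadjusted p = 0.00806, adjusted p = 1.00, edgeR), and an exact two-sided permutation test of the mean CPM gave p = 0.0317, where 5 against 5 can reach 0.00794. It was -1.08 without WT 3 and -0.70 without the libraries labelled WT 3 and WT 5. Tbxas1 had 23.1, 16.3, 109, 16.6 and 19.2 CPM in WT and 15.6, 20.6, 21.8, 7.73 and 8.93 CPM in ACKR2-/- libraries, and its log2 fold change of -1.30 (SE 0.57, adjusted p = 1.00) was -0.32 without WT 3. WT 3 also led in Ptgs1, at 68.4 CPM against 10.2 to 33.7 CPM in the other WT and 5.11 to 30.0 CPM in ACKR2-/- libraries, and in Ptgs2, at 90.6 CPM against 10.0 to 39.9 CPM and 3.98 to 38.6 CPM. Their log2 fold changes were -0.89 (SE 0.55) and -0.87 (SE 0.68), and -0.38 and -0.20 without WT 3. The interstitial macrophage list (7 of 7 found, none at 0) summed to 9404 CPM in WT 3, to 2329 to 2949 CPM in the other WT libraries and to 1196 to 2757 CPM in ACKR2-/- libraries. Other lists peaked in WT 3 too. The SPM list summed to 22635 CPM there against 2497 to 2972 CPM in the other 9. The MHCII gene H2-Ab1, a member of that list, made up most of the WT 3 sum. The dendritic cell list summed to 1142 CPM against 35.4 to 283 CPM, the B cell list to 1971 CPM against 126 to 679 CPM, and the megakaryocyte or platelet list to 659 CPM against 47.8 to 180 CPM. The part of any of these cells was not tested.

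Ptges in the lung followed another pattern. It had 29.1, 14.4, 6.46, 9.72 and 7.15 CPM in WT and 24.6, 10.0, 7.35, 3.10 and 7.44 CPM in ACKR2-/- libraries, so WT 1 and ACKR2-/- library 1 were the highest (log2 fold change -0.35, 95% interval -1.56 to 0.86). The epithelial list (6 of 6 found, none at 0), led by the surfactant gene Sftpc, was also highest in these libraries. It summed to 16918, 11206, 9212, 6414 and 416 CPM in WT and 18954, 12777, 7632, 252 and 6128 CPM in ACKR2-/- libraries, although the sort took CD45+ cells, and epithelial cells lack CD45. The part of epithelial RNA in the level of Ptges was not tested. Alox15 ranged from 0 to 46.6 CPM in WT and from 2.27 to 25.6 CPM in ACKR2-/- lung macrophages, and its interval from -3.41 to 2.24 held folds of either direction. The eosinophil list summed to 3.83 to 14.6 CPM in WT and 3.10 to 14.0 CPM in ACKR2-/- libraries, with Epx and Prg3 at 0, and the lowest WT sum was in the library labelled WT 5, which had the most Alox15. No leukotriene gene was called between genotypes, with log2 fold changes of 0.44 for Alox5ap (interval -0.03 to 0.91), 0.04 for Lta4h (-0.38 to 0.46), -0.04 for Ltc4s (-0.79 to 0.70) and -0.26 for Alox5 (-0.88 to 0.36).

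**Figure D5:**
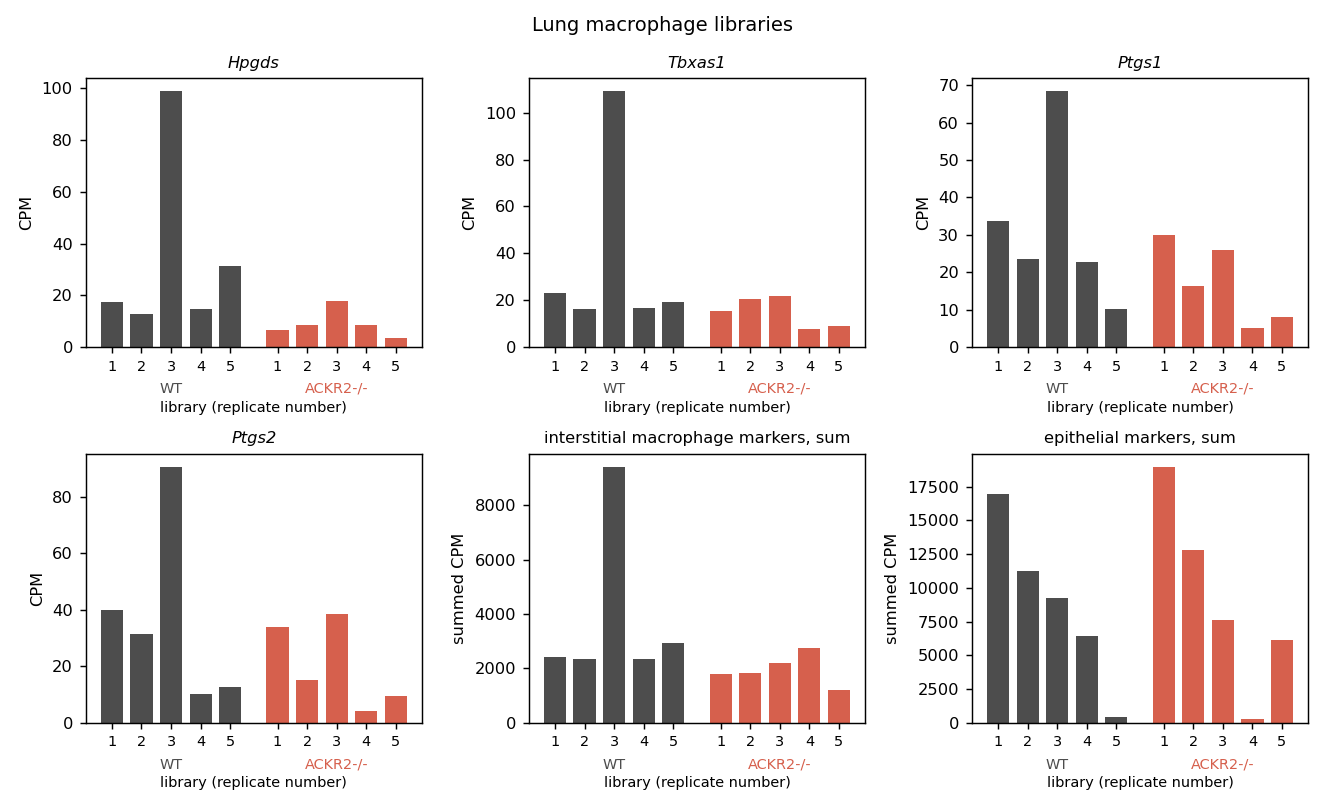
Bars give the level of Hpgds, Tbxas1, Ptgs1 and Ptgs2 (CPM) and the summed CPM of the interstitial macrophage and epithelial marker lists in each of the 10 lung macrophage libraries (grey labelled WT, red ACKR2-/-). WT 3 was the highest library in all 4 genes and in the interstitial macrophage sum, and sums of other lists not plotted also peaked there.

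The difference of the genotype effect between cell types was tested in 1 fit of the 26 samples, and none of the 10 genes passed in any of the 3 pairs (edgeR), where 0.253%, 0.152% and 0.0393% of 17792 genes passed for SPMs against monocytes, lung macrophages against monocytes and lung macrophages against SPMs. At an unadjusted p under 0.05 the counts were 3, 2 and 3 of 10 genes, beside 7.46%, 6.07% and 6.15% of all genes tested, and both contrasts with monocytes included Ltc4s, which had 0 reads in ACKR2-/- monocytes. For Alox15, the effect in SPMs minus that in monocytes was 3.74 on the log2 scale (SE 1.64, 95% interval 0.36 to 7.12, unadjusted p = 0.0317, adjusted p = 0.634). For Alox5 it was 1.37 (SE 0.43, unadjusted p = 0.00408, adjusted p = 0.333). For Hpgds, the effect in lung macrophages minus that in monocytes was -2.44 (SE 0.93, unadjusted p = 0.0145, adjusted p = 0.609), and for Ptges the effect in lung macrophages minus that in SPMs was -2.15 (SE 0.83, unadjusted p = 0.0151, adjusted p = 0.775). Each pair of tests shares the samples of a cell type.

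Of the 56 other genes listed for the pathway, all were found, and 32 were tested in monocytes, 34 in SPMs and 44 in lung macrophages. Between genotypes 1 of them was called in monocytes (1 higher) and none in SPMs or lung macrophages. That gene was Tbxa2r, which encodes the receptor of thromboxane A2. It had 0.0651, 0.187, 0.223 and 0.168 CPM in WT monocytes, from 1, 3, 4 and 3 reads, and 2.31, 0.683, 1.16 and 1.12 CPM in ACKR2-/- monocytes, from 43, 12, 22 and 21 reads. The genotypes did not overlap, and the log2 fold change was 2.97 (SE 0.52, adjusted p = 0.0176), with a loss of the call without any WT library (adjusted p up to 0.0824). The T cell list (8 of 8 found, none at 0) did not overlap either, at 3.56 to 4.87 CPM in WT and 64.6 to 115 CPM in ACKR2-/- monocytes. Within the ACKR2-/- libraries it was highest in library 4, whereas Tbxa2r was highest in library 1. The dendritic cell list (7 of 7 found, none at 0) had the order of Tbxa2r there, at 173, 66.4, 112 and 102 CPM, and overlapped the WT range of 54.8 to 78.4 CPM. The megakaryocyte or platelet list (8 of 8 found) ranged from 6.64 to 64.4 CPM in WT and from 1.58 to 15.4 CPM in ACKR2-/- monocytes. The part of any of these cells was not tested. Tbxa2r was not called in SPMs (0.41, SE 0.34) or lung macrophages (-0.72, SE 0.63).

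The gene of each list with the highest WT level per length placed the 10 in context. Among the listed phospholipases A2 it was Pla2g7 in all 3 cell types, at 16.1 ± 5.63 CPM per kilobase in monocytes, 78.9 ± 28.2 in SPMs and 102 ± 33.9 in lung macrophages. A place in this list does not show that Pla2g7 releases arachidonic acid. Among the genes listed for leukotriene processing it was Mgst1 in monocytes (326 ± 32.4) and Cyp4f18, a leukotriene B4 hydroxylase gene, in SPMs (191 ± 71.0) and lung macrophages (298 ± 118). Its listing does not show that Mgst1 acts on leukotrienes. The leukotriene B4 receptor gene Ltb4r1 led its list at 187 ± 34.8 in monocytes, 284 ± 104 in SPMs and 25.0 ± 5.01 in lung macrophages. Hpgd, which inactivates prostaglandins, was the highest gene of breakdown and transport in lung macrophages, at 283 ± 24.6, and Ptgr1 was in monocytes (80.0 ± 13.2) and SPMs (21.8 ± 6.17). Other prostanoid enzymes were led by Ptges3 in monocytes (45.1 ± 4.45) and lung macrophages (31.6 ± 3.56) and by Akr1c18 in SPMs (88.4 ± 29.6). Prostanoid receptors were led by the prostacyclin receptor gene Ptgir in monocytes (5.12 ± 0.433) and SPMs (7.81 ± 4.22) and by the prostaglandin E2 receptor gene Ptger4 in lung macrophages (11.4 ± 1.53). The other lipoxygenases stayed under 1 CPM per kilobase, the highest being Alox12 in monocytes (0.228 ± 0.373) and lung macrophages (0.774 ± 0.606) and Alox8 in SPMs (0.0336 ± 0.0231).

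Between WT cell types, 22 of 46 pathway genes tested were called for SPMs against monocytes (15 higher, 7 lower), 32 for lung macrophages against monocytes (20 higher, 12 lower) and 29 for lung macrophages against SPMs (13 higher, 16 lower), beside the shares of all genes given above. None of the pathway genes named here for their WT level was called between genotypes, and Ptgir (log2 fold change -0.65, SE 0.16, adjusted p = 0.084) and Ltb4r1 (-0.58, SE 0.18, adjusted p = 0.135) were the nearest of them in monocytes (edgeR).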

How the data were processed

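RNA was amplified from sorted cells with a low-input kit that does not mark strand, so reads of Ltc4s and Alox5ap and of the antisense genes that overlap them, or of Tbxas1 and overlapping Hipk2, cannot be told apart. Per the labels and the submitters' processing notes, the authors aligned reads to mm10 with HISAT2 2.0.5, counted them with featureCounts 1.5.0-p3 and ran DESeq2. The deposited values are whole-number read counts per gene, not normalized. The lung table alone held 5 summary lines that name no gene (56.3% of its counts), which were left out. It lists 57186 genes, against 54375 for monocytes and 54863 for SPMs. The lung reads may therefore have been counted in another way, which the notes do not state, and contrasts with lung macrophages carry that difference. Counts were tested with edgeR 4.0.16 (quasi-likelihood test, TMM scaling, filterByExpr with a minimum count of 10), once per cell type and, over the shared identifiers, once for all 26 samples, where a call needed a log2 fold change over 0.5 in size at a Benjamini-Hochberg adjusted p under 0.05. Alternatives included DESeq2 1.42.0, RLE scaling, other filters, a replicate block and leaving out each library. The scripts were tested on simulated data. Fewest reads on genes were 12781144, and a count of 0 allows up to 3 reads. The text names the 10 genes, the leading or called pathway genes, the marker lists beside a result and the 3 genes most like each of the 10. The members and lists were chosen with earlier results of these data known.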

Additional observations from a re-analysis of the deposited data

Results flagged for a closer look

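Among 65 groups of 4 or 5 libraries, 8 values lay far from the rest of their group by Dixon's test, where chance gives about 1 group in 20. ACKR2-/- monocyte library 1 had 12.1 CPM of Ptges and 2.15 CPM of Hpgds, each above the other 3 of its group. Lung library WT 3 had 98.9 CPM of Hpgds and 109 CPM of Tbxas1, and it was also the library with the highest H2-Ab1. ACKR2-/- SPM library 1 had 28.3 CPM of Alox5, below the other 3 ACKR2-/- libraries, and ACKR2-/- lung library 5 had 106 CPM of Lta4h, below the other 4. Ptgs2 rested on a single read in WT SPM library 4 (0.0370 CPM) and in ACKR2-/- SPM library 4 (0.0269 CPM), with 0 in the other libraries of each group.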

How the results depend on the processing

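Of the counts of members called, 180 of the alternative values stayed within 1.5 times the reported count and 8 did not, all 8 in the genotype comparison of monocytes. There the count of 1 became 2 with DESeq2, 2 without a filter on low counts, 3 with the replicate block and 0 in the fit of 26 samples, and 0 to 1 when a library was left out (0 without any of the 4 WT libraries); the cause was not tested. The counts of all genes called went from 168 to 494 with DESeq2, 346 without a filter and 112 in the fit of 26 samples, and from 76 to 413 when 1 library was left out, and to 1136 without ACKR2-/- libraries 3 and 4. In SPMs, 6 calls over all genes became 33 with DESeq2 and 52 without a filter, and in lung macrophages 0 became 15 with DESeq2. Members called between genotypes stayed at 0 in SPMs and lung macrophages, as did those with a differing genotype effect, in every alternative run. Between WT cell types they ranged from 6 to 7, 5 to 7 and 6 to 8.

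The replicate numbers did not match the samples of the genotypes throughout. Correlations of same-numbered deviations ran from -0.118 to 0.307 in monocytes, -0.0918 to 0.0246 in SPMs and -0.0779 to 0.643 in lung macrophages. The best match was the same-numbered library for lung replicate 1 (0.643) and monocyte replicate 2 (0.307), and for no other. With so few libraries per genotype, these correlations cannot decide whether the samples were paired. With the replicate block, Alox15, Alox5 and Ptgs1 were called in monocytes, calls over all genes fell from 7446 to 3429, from 11358 to 6830 and from 11082 to 6706 between WT cell types, and the genotype log2 fold changes turned to 1.38 for Alox15 in lung macrophages and 0.11 for Hpgds in SPMs.

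Genotype log2 fold changes of 25 member values reversed, none of them called. When a library was left out, they ranged in monocytes from -0.190 to 0.0575 for Alox5ap, from -0.115 to 0.369 for Ptges and from -0.575 to 0.835 for Hpgds. In SPMs they ranged from -0.435 to 0.0131 for Ltc4s, from -0.138 to 0.0507 for Lta4h, from -0.384 to 0.422 for Hpgds and from -0.0466 to 0.176 for Tbxas1. In lung macrophages they ranged from -1.32 to 0.584 for Alox15, from -0.225 to 0.166 for Ltc4s, from -0.0519 to 0.163 for Lta4h and from -0.938 to 0.172 for Ptges. Lta4h in SPMs was 0.00337 without a filter and 0.0226 in the fit of 26 samples. Without ACKR2-/- SPM libraries 1 and 4, Lta4h was 0.15 and Hpgds 0.11. Without the lung libraries labelled WT 3 and WT 5, Alox15 was 0.21 and Ltc4s 0.0204. Depth limited Ltc4s and Ptgs2 in monocytes and Ptgs2 in SPMs, which were near or under 3 reads a library.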
